A study of Bos taurus with 147 samples.

Results

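PDK4 and TXNIP are 2 of the 976 genes named on a bovine cDNA array of muscle and fat clones. They were chosen by their gene names, with earlier results of these arrays known, because both had shown one of the larger increases between d 195 of gestation and birth. Of the 21168 array elements, 4490 carried 1 gene name. PDK4 had 4 of them (2 clones, each spotted in duplicate) and TXNIP had 18 (9 clones, each spotted in duplicate). Both genes passed the filter on missing values in all 3 experiments described here.

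PDK4 encodes pyruvate dehydrogenase kinase 4, a mitochondrial enzyme that phosphorylates the pyruvate dehydrogenase complex and shuts it off, so that pyruvate made from glucose is spared and fatty acids are burned instead. TXNIP encodes thioredoxin-interacting protein, an alpha-arrestin that binds thioredoxin and takes glucose transporters off the cell surface. Both transcripts are known as nutrient sensors of skeletal muscle: PDK4 mRNA goes up with fasting, fatty acids and glucocorticoids, and TXNIP mRNA goes up with glucose-derived sugar phosphates. At birth the fetus loses the steady placental supply of glucose and starts to live on its stores and on milk fat.

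The fetal experiment sampled the longissimus muscle of the back in calves that Hereford dams carried, in 3 fetal stages (d 60, d 135 or d 195 of gestation) and in newborns. The sires were Piedmontese bulls, which were homozygous for a missense mutation of GDF8 (myostatin, a brake on muscle growth), or Wagyu bulls, a breed known for intramuscular fat, and the methods give 3 animals per sire breed and stage. The crossbred experiment sampled the same muscle of Piedmontese x Hereford and Wagyu x Hereford animals at T1, T2 and T3, and the Belmont Red experiment sampled pools of Belmont Red steers on a low or a growth diet at T1, T2 and T3. The ages behind T1 to T3 are not given in the sources used here. At d 60 the study describes a longissimus that was not yet distinct and skin that was hard to take off. It also reports that RNA amplification may have biased a Piedmontese-sired d 60 sample, as seen for MATR3. Its discussion therefore focused on the later stages. One bull sired all d 60 fetuses of a sire breed, one bull all Piedmontese-sired d 195 fetuses, 2 of which were twins, and one bull all Wagyu-sired d 135 fetuses. All 6 newborns were female, while 4 of the 6 d 195 fetuses were male, so the step at birth also differs in sex. Fetuses were recovered by caesarean section, and newborns were killed by lethal injection within a day of birth. The study states that its newborn samples may also carry effects of birth trauma. Sex, delivery and collection cannot be told apart from the step at birth.

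Every array set 2 RNA samples against each other, so each value is a log2 ratio within an array and not a level. The fetal experiment had 25 arrays, the crossbred experiment 20, the Belmont Red experiment 24 over 12 pools, and 1 array set an RNA against itself. Usable elements per array numbered 19404 to 20771 in the fetal experiment, 20794 to 20946 in the crossbred experiment and 20416 to 20891 in the Belmont Red experiment. All ratios below were centred on the median of their array, and the direction (Cy5 over Cy3, red dye over green) is the likely one, read from the sample labels and the study's drawing of the array loop. Animals recur on more than 1 array and are not tied to array numbers, so standard errors (SE) and p-values measure the spread between arrays, which is partly technical.

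PDK4 was several-fold higher at birth than at d 195 in both sire breeds, and was nearly level from d 60 to d 195. The 3 arrays that set birth against d 195 in Piedmontese-sired animals gave log2 ratios of 2.51, 1.92 and 3.26, and the 3 arrays in Wagyu-sired animals gave 4.33, 2.38 and 1.85. All 6 arrays were above 0, and the sire breeds, in which the dyes ran opposite ways, overlapped. Fitted over all 25 arrays, the difference was 2.71 (SE 0.22) as the mean of the sire breeds, a 6.54-fold increase, with 2.67 (SE 0.28) in Piedmontese-sired and 2.75 (SE 0.28) in Wagyu-sired animals. It ranked 5 from the top among the 975 named genes fitted, and since the gene was chosen on this contrast the value is given with no test.

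The other fetal ratios of PDK4 were small. On the 19 arrays that did not set birth against d 195, its ratio was at most 0.60 in size, with a median size of 0.16, against a lowest value of 1.85 on the 6 arrays that did. For d 135 over d 60 the arrays read -0.08, -0.29 and -0.12 in Piedmontese-sired fetuses and 0.18, -0.21 and -0.17 in Wagyu-sired fetuses. For d 195 over d 135 they read -0.16, -0.59 and 0.36 in Piedmontese-sired fetuses, and lay between -0.04 and 0.15 on 4 arrays in Wagyu-sired fetuses. The fitted steps were -0.12 (SE 0.22) and -0.05 (SE 0.20), both smaller than their errors, so that birth over d 60 was 2.55 (SE 0.37).

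TXNIP showed a similar step at birth. The arrays of birth over d 195 gave 2.48, 1.75 and 2.63 in Piedmontese-sired animals and 3.67, 2.28 and 2.19 in Wagyu-sired animals, again all above 0 and overlapping. The fitted difference was 2.50 (SE 0.16), or 5.66-fold, with 2.30 (SE 0.21) in Piedmontese-sired and 2.70 (SE 0.21) in Wagyu-sired animals, next below PDK4 in rank among the named genes. On the 19 other fetal arrays its ratio reached 0.93 in size, with a median size of 0.36, against a lowest value of 1.75 on the 6 birth arrays. In bulk muscle, more RNA per cell and more cells of the type that holds a transcript cannot be told apart.

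**Figure D1:**
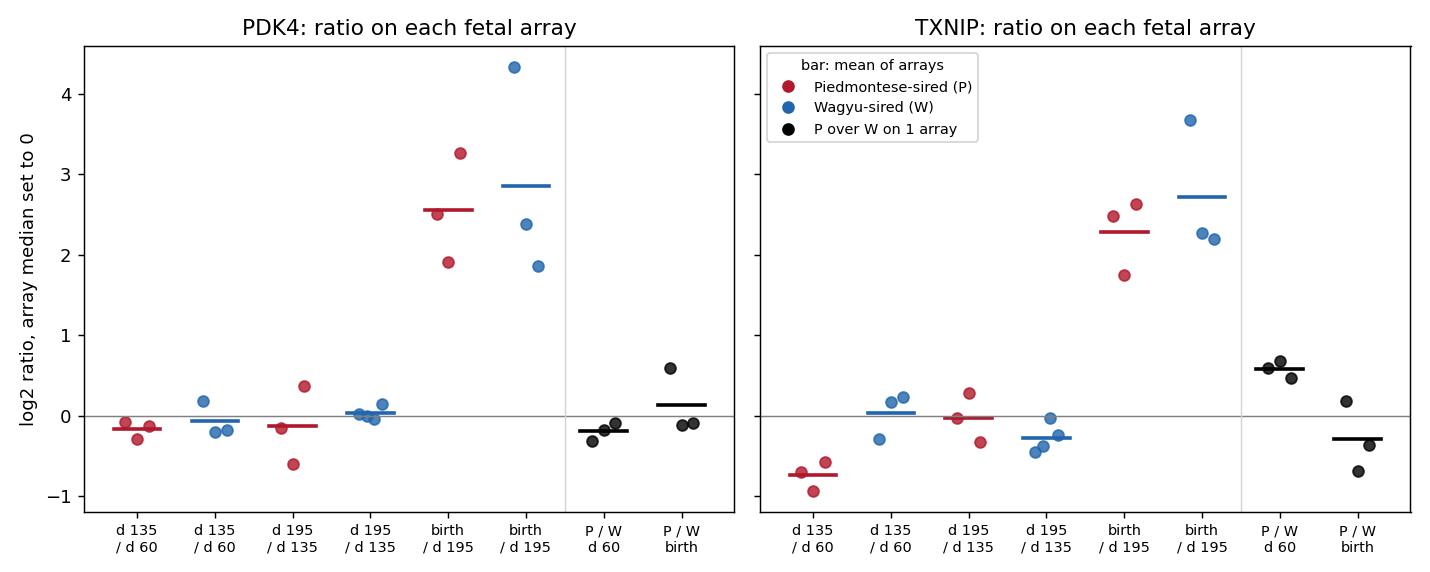
Log2 ratio of PDK4 and of TXNIP on each of the 25 fetal arrays (y axis), by the pair of groups on the array (x axis), with each point an array, colours for the sire breed and a bar at the mean of the arrays of a pair. The 6 arrays of birth over d 195 lie at 1.85 or more for PDK4 and at 1.75 or more for TXNIP, above all other arrays.

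Before birth the TXNIP ratios were somewhat larger than those of PDK4. For d 135 over d 60 its arrays read -0.69, -0.93 and -0.58 in Piedmontese-sired fetuses and -0.29, 0.17 and 0.23 in Wagyu-sired fetuses. The Piedmontese arrays were all below the Wagyu arrays, with fitted steps of -0.72 (SE 0.21) and 0.03 (SE 0.21). For d 195 over d 135 the arrays read -0.03, 0.28 and -0.33 in Piedmontese-sired fetuses and -0.45, -0.38, -0.02 and -0.24 in Wagyu-sired fetuses. The fitted steps were -0.01 (SE 0.21) and -0.28 (SE 0.19), and their mean of -0.15 (SE 0.15) did not exceed its error. Birth over d 60 was therefore 1.56 (SE 0.31) in Piedmontese-sired and 2.45 (SE 0.30) in Wagyu-sired animals.

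Placed on 1 scale by the fit, the 8 groups fell into 2 tiers for each gene. With Piedmontese-sired newborns set to 0, PDK4 stood at -0.02 in Wagyu-sired newborns and between -2.51 and -2.77 in all 6 prenatal groups. The only neighbours in this order that differed by more than the SE of their difference were Wagyu newborns and Wagyu d 60 fetuses, 2.49 apart (SE 0.41). TXNIP stood highest in Wagyu-sired newborns, at 0.30 (SE 0.21) over Piedmontese-sired newborns, and next came Piedmontese-sired d 60 fetuses at -1.56 (SE 0.31). The other 5 prenatal groups lay between -2.12 and -2.40, the highest of them 0.56 (SE 0.28) below the Piedmontese d 60 group.

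**Figure D2:**
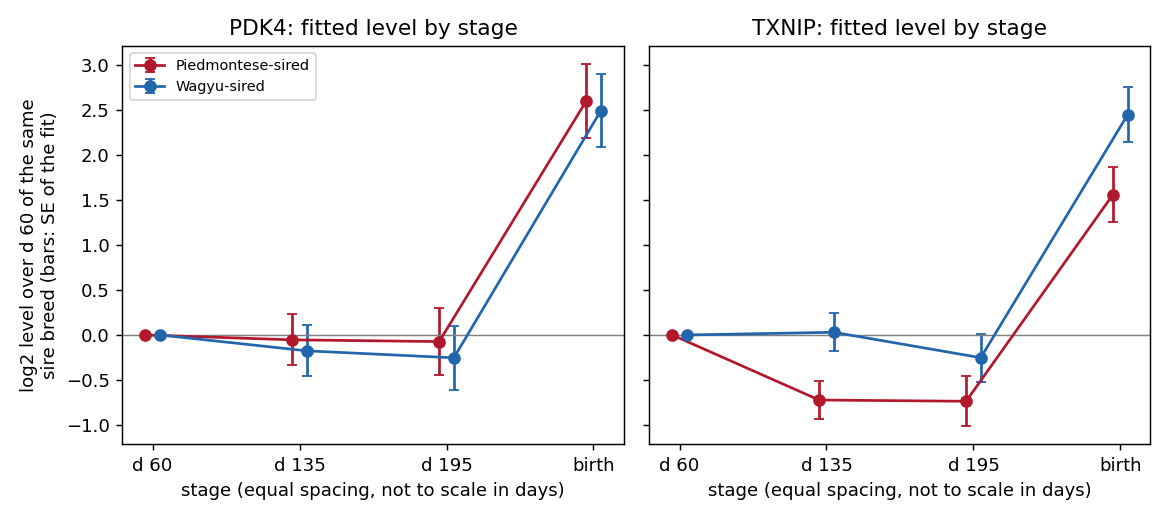
Fitted log2 level of PDK4 and of TXNIP (y axis) over the 3 fetal stages and in newborns (x axis). Levels are relative to d 60 of the same sire breed, with a line for each sire breed and bars of 1 SE of the difference from d 60. PDK4 is flat over the 3 prenatal stages in both sire breeds. At d 135 TXNIP lies at -0.72 in Piedmontese-sired animals and at 0.03 in Wagyu-sired animals.

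The clones of a gene did not give the same size. For birth over d 195, the 2 PDK4 clones read 1.88 and 3.54. Of the 9 TXNIP clones, 8 read between 2.06 and 3.25, and the remaining one, clone 2, read 0.24. Over the fetal arrays clone 2 correlated with the mean of the other TXNIP clones at r = 0.13, while the others ranged between 0.85 and 0.99. Both spots of a clone usually read alike, with median differences of 0.05 to 0.13 on the fetal arrays, although single pairs of spots differed by up to 5.17. Clone sequences were not used here, so it was not tested whether clone 2 holds TXNIP. The fitted step at birth was above 0 in each of the 11 clones, but single arrays of clone 2 had no common direction. Its arrays of birth over d 195 read -0.72, 1.545 and 0.87 in Wagyu-sired animals and also lay on both sides of 0 in Piedmontese-sired animals.

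**Figure D3:**
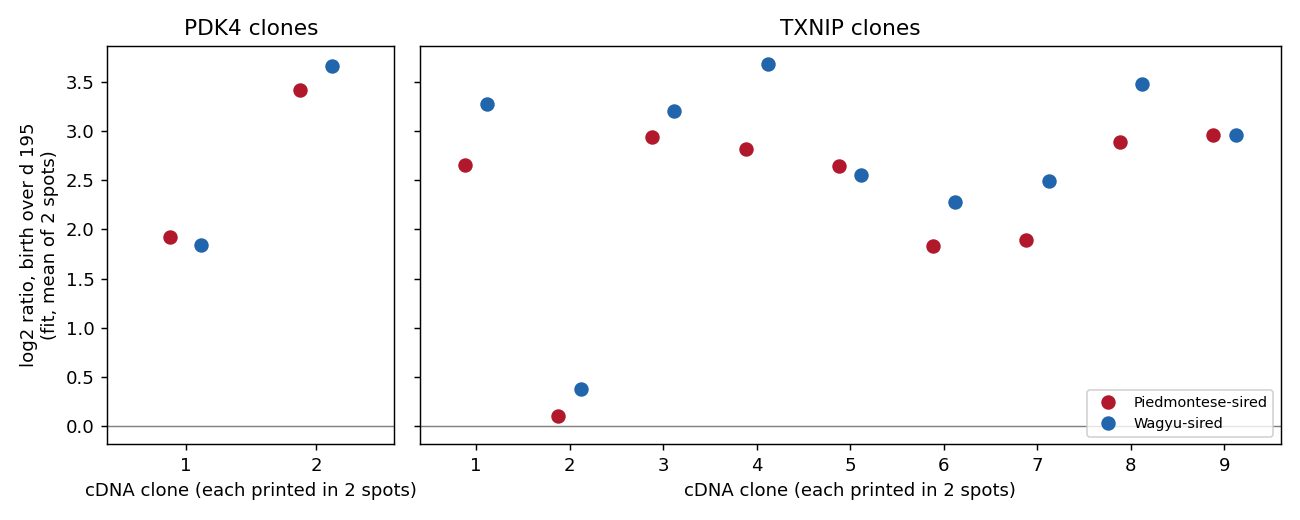
Fitted log2 ratio of birth over d 195 (y axis) for each of the 2 PDK4 and 9 TXNIP clones (x axis), in Piedmontese-sired and Wagyu-sired animals. All clones lie above 0, and TXNIP clone 2, at 0.24 as the mean of the sire breeds, lies far below the other 8.

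Over the 25 fetal arrays PDK4 and TXNIP had Pearson's r = 0.93 and Spearman's rho = 0.53. On the 19 arrays without a birth to d 195 comparison r was -0.03, so that their likeness rests on the 6 others. The named genes most like PDK4 were PFKFB3 (r = 0.97), which makes the activator of glycolysis fructose-2,6-bisphosphate, FBXO40 (0.94), a muscle ubiquitin ligase that acts on IRS1, TXNIP (0.93), ANKRD1 (0.93), a stretch-responsive sarcomere protein, and MAP3K15 (0.92), a kinase of the stress-activated cascade. Without the birth to d 195 arrays the r with PDK4 was 0.70 for PFKFB3, 0.25 for MAP3K15, 0.09 for FBXO40 and 0.03 for ANKRD1. Of these 5 genes PFKFB3 had the highest r there. PDK4 itself barely moved on those 19 arrays, which were also among the arrays used to pick the 5 genes. Farthest from PDK4 were GPC3 (-0.93), CXCR4 (-0.92) and MCAM (-0.91), cell-surface proteins of growing or migrating cells, with birth over d 195 at -3.66, -1.86 and -2.32.

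For TXNIP the list was led by MAP3K15 (0.96), PDK4 and PFKFB3 (both 0.93), TUBA4A (0.92), a muscle alpha-tubulin, and FBXO40 (0.90). Without the birth to d 195 arrays r was 0.71 for MAP3K15, 0.51 for TUBA4A, 0.29 for PFKFB3 and -0.02 for FBXO40. The opposite end held H3-3A (-0.90), a replacement histone, TMSB4X (-0.90), an actin-binding peptide, and CXCR4 (-0.89). These correlations describe arrays that share animals and have no p.

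Other genes of the same fuel choice were read for birth over d 195, a contrast in which 52.5% of the 16660 features tested passed 0.05 after Benjamini-Hochberg adjustment in limma, 26.7% higher and 25.8% lower, with a median over all features of 0.00069. At so broad a background a share of called genes in a list says little about that list. No other pyruvate dehydrogenase kinase and no other arrestin-domain gene was measured by name. Of the pyruvate dehydrogenase genes, 2 of 13 listed were measured: DLAT, the E2 core of the complex that PDK4 binds, was higher at birth by 1.69, and MPC2, a subunit of the mitochondrial pyruvate carrier, read -0.12 and did not pass.

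In the thioredoxin list 5 of 24 genes were measured, with a median of -0.43. PRDX5 (-0.55), GLRX (-0.45) and PRDX2 (-0.43), peroxide- and disulfide-reducing enzymes, were lower at birth, and PRDX1 (-0.40) and PRDX3 (0.22) did not pass. None of the 5 passed as higher at birth, the direction in which TXNIP, the partner of thioredoxin, moved. In the glucose list 4 of 21 were measured: PFKFB3 was higher by 3.27 and GPI, which turns glucose-6-phosphate into fructose-6-phosphate, by 1.05, while SLC2A4, the insulin-responsive glucose transporter (0.42), and the kinase AKT1 (-0.22) did not pass.

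Of 36 fatty acid genes 15 were measured, and 6 were higher, 3 lower and 6 not past the threshold, with a median of 0.23. HADHB of the trifunctional protein was higher by 1.22 and the lipoprotein lipase LPL by 0.79, while DECR1, the reductase for unsaturated fatty acids, was lower (-1.47). In the list of ketone, lactate and amino acid fuel, with 4 of 17 measured, GOT2 of the malate-aspartate shuttle was higher by 1.91 and LDHA by 1.06, LDHB was lower (-0.45), and ACAT1 did not pass (-0.11). The fatty acid genes and the enzymes that handle pyruvate and lactate each split in direction. Over all features 26.7% were higher and 25.8% lower, so such a split says little about these lists.

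The glucocorticoid and fasting list had 8 of 27 genes measured and a median of 0.92. Like the other lists, it was chosen with earlier results of these data known. Its member FBXO40 was also picked above by its correlation with PDK4 on these arrays. FBXO40 was higher at birth by 3.61, the stress sensor SESN1 by 2.10, DDIT4, an inhibitor of mTORC1, by 1.32, the transcription factor CEBPD by 1.02 and the phosphatase DUSP1 by 0.83. The cell cycle inhibitor CDKN1A (-0.72) and ANGPTL4, an inhibitor of lipoprotein lipase (-0.51), were lower, and metallothionein MT1A (-0.05) did not pass. Of the 27 transcription factors and cofactors known to act on PDK4 or TXNIP, 4 were measured. NR3C1, the glucocorticoid receptor, was lower (-0.83), and ESRRA (0.41), RXRB (-0.48) and STAT5A (-0.10) did not pass.

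Markers of other cells moved with the same step. All 4 measured fibroblast and matrix genes were lower at birth, COL3A1 (-2.90), LUM (-2.26), COL1A1 (-2.16) and DCN (-1.18), and so were the endothelial gene EGFL7 (-3.33) and 1 of 3 immune genes, CTSS (-0.72). Of the skeletal muscle genes, 3 of 4 were higher, MYH1 (1.45), CKM (1.30) and ACTA1 (0.78), and MYL1 read -0.04. All 5 adipocyte genes were between -0.13 and 0.05 and none passed, and no blood, epidermis or bone marker was measured. PDK4 and TXNIP were chosen for their step at birth and these markers were not, so the sizes of their steps were not compared. The part of cell makeup in the step of PDK4 and TXNIP was not tested.

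Sire breed was tested within each stage, a contrast other than the step at birth on which the genes were chosen. No difference of PDK4 between Piedmontese-sired and Wagyu-sired animals passed the limma test with Benjamini-Hochberg adjustment over all features. At d 60 the arrays of Piedmontese over Wagyu read -0.31, -0.18 and -0.09 and at birth 0.60, -0.12 and -0.09. The fitted values for PDK4 were -0.08 (SE 0.28, adjusted p = 0.944) at d 60 and 0.02 (SE 0.28, adjusted p = 0.977) at birth, with a 95% interval at birth of -0.57 to 0.61. At d 135 and d 195, where the sire breeds met only through chains of arrays, they were 0.04 (SE 0.41) and 0.10 (SE 0.41), each with an adjusted p of 1. The share of all features past the threshold was 0.048% at d 60 and 0.276% at birth. It was 0% at d 135, with 256 features at an unadjusted p under 0.05, and 0% at d 195, with 448 such features.

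TXNIP read higher in Piedmontese-sired than in Wagyu-sired fetuses on all 3 arrays at d 60, at 0.59, 0.67 and 0.46. The fitted difference was 0.59 (SE 0.21, 95% interval 0.15 to 1.03), which had an unadjusted p of 0.0114 in limma and did not pass adjustment (adjusted p = 0.248). With arrays scaled to a common spread it passed (0.70, adjusted p = 0.0215). Of the 9 clones, 7 read 0.66 to 0.81, clone 6 read 0.19 and clone 2 read 0.04. Whether the amplification of the d 60 RNA had a part in this difference was not tested. At birth the arrays read 0.18, -0.68 and -0.36 and the fit -0.30 (SE 0.21, adjusted p = 0.45), and at d 135 and d 195 the fit gave -0.16 and 0.10 (SE 0.31 each, adjusted p = 1). TXNIP is also among the genes that the study listed for a sire breed difference at some stage in these samples, so its breed values are not independent evidence.

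The size of the last step did not differ detectably between the sire breeds. Piedmontese minus Wagyu, the change of birth over d 195 differed by -0.07 (SE 0.37, 95% interval -0.85 to 0.70, limma adjusted p = 0.934) for PDK4 and by -0.40 (SE 0.28, -0.98 to 0.17, adjusted p = 0.465) for TXNIP. In this contrast 0% of the features passed, and 2913 had an unadjusted p under 0.05.

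In the crossbred animals PDK4 fell between T1 and T2. The 2 arrays of T2 over T1 read -1.78 and -2.55 in Piedmontese crosses and -1.71 and -0.73 in Wagyu crosses. All 4 were below 0, and the fitted mean was -1.69 (SE 0.33, limma adjusted p = 0.00774), so that T2 stood at 0.31 of T1. Of all 17253 features, 6.86% passed in this contrast, and PDK4 had the third lowest value among 973 named genes. Within breeds it was -2.33 (SE 0.38, adjusted p = 0.00591) in Piedmontese crosses, the lowest of the named genes, and -1.06 (SE 0.38, adjusted p = 0.124) in Wagyu crosses, with 5.38% and 3.34% of the features past the threshold. Without the arrays numbered 1 or those numbered 2, which leaves 1 array per step, the mean was -1.64 (adjusted p = 0.0521) or -1.75 (adjusted p = 0.101) and missed the threshold, and without those numbered 2 the step in Piedmontese crosses missed it too (-2.29, adjusted p = 0.106).

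From T2 to T3 PDK4 had no common direction, with arrays of T3 over T2 at -0.93 and 0.82 in Piedmontese crosses and -1.97 and 0.42 in Wagyu crosses. The arrays of each breed lay on both sides of 0, and the fitted mean of -0.42 (SE 0.33) did not pass (adjusted p = 0.459), in a contrast where 10.7% of the features did. T3 over T1 was -2.11 (SE 0.47, adjusted p = 0.0425), the lowest of the 973 named genes, where 0.759% of the features passed. Without the arrays numbered 1 it was -1.02 (adjusted p = 0.726) and without those numbered 2 it was -3.20 (adjusted p = 0.319), and it kept its call in 7 of 16 alternative settings.

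No step of TXNIP over T1 to T3 passed the test. The arrays of T2 over T1 read -0.75 and -0.52 in Piedmontese crosses and 0.31 and 0.05 in Wagyu crosses, with a mean of -0.23 (SE 0.26, adjusted p = 0.653). T3 over T2 read 0.05 and 1.00 in Piedmontese crosses and 0.34 and -0.47 in Wagyu crosses, with a mean of 0.23 (SE 0.26, adjusted p = 0.628). Over the 20 crossbred arrays PDK4 and TXNIP had r = 0.30.

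At T2 PDK4 was lower in Piedmontese than in Wagyu crosses in the fit as run, a call that 8 of 16 alternative settings lost, and TXNIP read lower on all 4 arrays without passing the test. The 4 arrays of Piedmontese over Wagyu read -1.18, -0.61, -1.68 and -0.84 for PDK4, with the dyes swapped within arrays 1 and 2 and within arrays 3 and 4. All 4 were below 0, and the fitted difference was -1.07 (SE 0.28, limma adjusted p = 0.0438), or 0.48 of the level in Wagyu crosses, among 3.28% of the features past the threshold. For TXNIP they read -0.60, -0.61, -0.86 and -0.72, and the fitted -0.71 (SE 0.22) had an unadjusted p of 0.005 and an adjusted p of 0.104, which became 0.0476 with arrays scaled to a common spread and 0.0487 with array weights. For PDK4, leaving out array 2, 3 or 4 put the adjusted p at 0.129, 0.194 or 0.125, and the array number as a block gave -0.75 (adjusted p = 0.425).

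**Figure D4:**
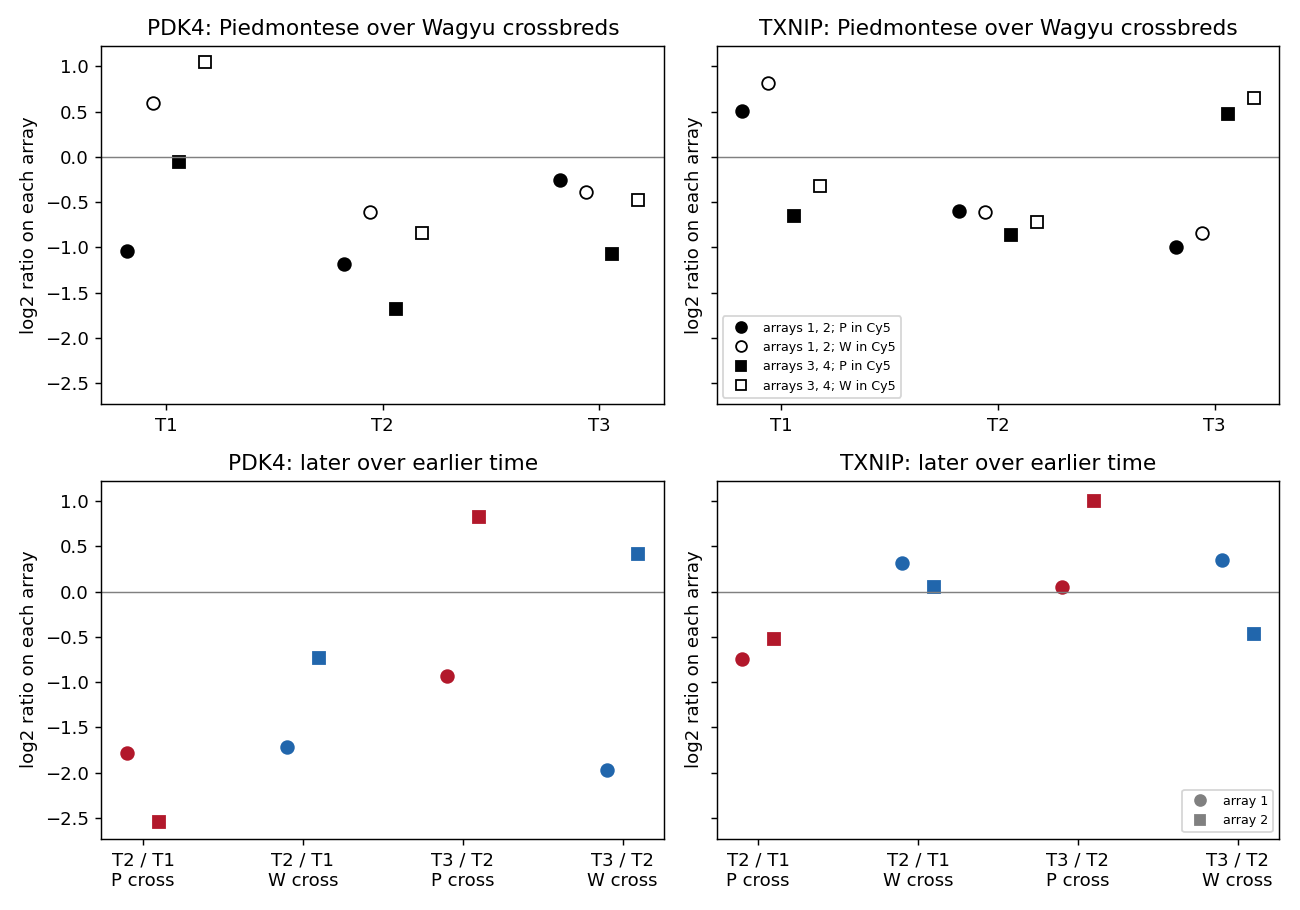
Log2 ratios of PDK4 and TXNIP (y axis) on the 20 crossbred arrays, with Piedmontese over Wagyu crosses at T1, T2 and T3 and the steps T2 over T1 and T3 over T2 in each breed (x axis), each point being an array. All PDK4 and TXNIP breed arrays at T2 lie below 0, and all 4 PDK4 arrays of T2 over T1 lie at -0.73 or lower.

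Arrays of a breed contrast were partly alike in couples. Once turned to the same direction, arrays 1 and 2 correlated over all features at r = 0.62, 0.31 and 0.28 at T1, T2 and T3, and arrays 3 and 4 at 0.15, 0.13 and 0.46. Across couples r ranged from -0.65 to 0.29, and at T2 arrays 1 and 3 (0.15) and arrays 2 and 4 (0.29), which share a dye direction, were no less alike than arrays 3 and 4. Whether the 4 arrays come from separate animals is not given in the sources used here. With each couple averaged first the PDK4 difference at T2 stayed at -1.06 with an adjusted p of 0.457. The step T2 over T1 of PDK4 kept its call when couples were averaged (-1.69, adjusted p = 0.0285). The array of an RNA against itself read -0.36 for PDK4 and 0.01 for TXNIP, and the fitted dye term of PDK4 in the crossbred arrays was -0.29 (SE 0.15). Within a couple, the array with Piedmontese RNA in Cy5 read lower for PDK4 in 5 of 6 couples. The dyes were swapped within the breed contrasts and ran opposite ways in the time steps of the 2 breeds.

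At T1 and T3 the breeds were not separated. The arrays of Piedmontese over Wagyu at T1 read -1.04, 0.59, -0.05 and 1.05 for PDK4 and 0.50, 0.82, -0.65 and -0.32 for TXNIP, with fitted values of 0.20 (adjusted p = 0.791) and 0.12 (adjusted p = 0.861) and 0.753% of the features past the threshold. At T3 the 4 PDK4 arrays were all below 0, at -0.26, -0.39, -1.07 and -0.47, and the fitted -0.62 (SE 0.31) did not pass (adjusted p = 0.399). TXNIP read -0.99, -0.84, 0.47 and 0.65 there, split by couple, with a fit of -0.19 (adjusted p = 0.806) and 0.556% of the features past the threshold. The change of the breed difference between T1 and T2 was -1.27 (SE 0.37, adjusted p = 0.132) for PDK4 and -0.83 (SE 0.30, adjusted p = 0.235) for TXNIP, where 1.13% of the features passed.

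At T2, where 3.28% of all features passed between breeds, 2 genes of the fuel and regulator lists did. PFKFB3 was lower in Piedmontese crosses (-1.60, adjusted p = 0.0152), and SLC2A4 was higher (0.59, adjusted p = 0.0148), while none of the 15 fatty acid, 8 glucocorticoid and fasting, 5 thioredoxin and 2 pyruvate dehydrogenase genes passed. Adipocyte genes were lower in Piedmontese crosses at the same time, 3 of 5 past the threshold, with ADIPOQ at -1.25, FABP4 at -1.13 and PLIN1 at -0.47, and 1 of 4 fibroblast and matrix genes, COL1A1, was lower too (-1.22). None of the 4 skeletal muscle genes passed (0.25 to 0.55). Ratios give no level of these markers, and their part in the PDK4 and TXNIP differences was not tested. Over alternative settings, 101 to 880 features were called in the breed contrast at T2, against 566 in the fit as run. How the list and marker calls at T2 held under these settings is not given here. Between T2 and T1, where 6.86% of all features passed, only ECI2 (0.63), an enzyme for unsaturated fatty acids, DDIT4 (0.55) and the adipocyte gene FABP4 (0.56) passed, all higher at T2, and PFKFB3 read -0.29. These 3 calls were lost without the arrays numbered 2.

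In Belmont Red steers PDK4 read lower on the low diet than on the growth diet on all 12 arrays that set the diets against each other, a difference that did not pass the test over pools. The 4 arrays of low over growth diet read -0.07, -0.52, -0.29 and -1.01 at T1, -0.56, -0.06, -0.26 and -0.48 at T2 and -0.22, -0.83, -0.51 and -0.82 at T3. At each of the 3 times both low diet pools were below both growth diet pools. Relative to the mean of the growth diet pools at T1, the pools stood at -0.19 and -0.81 on the low diet and at -0.01 and 0.01 on the growth diet at T1, at -0.92 and -0.82 against -0.38 and -0.67 at T2, and at -0.33 and -0.71 against 0.08 and 0.01 at T3. Over the 12 pools the mean difference was -0.47 (SE 0.13), a level of 0.72 on the low relative to the growth diet, with an unadjusted p of 0.00455 and an adjusted p of 0.129 in limma, where 0.387% of the features passed. With the 24 arrays taken as independent the adjusted p was 0.000531, but each pool lay on 4 of them. The fit took the 12 pools as independent. Arrays across times paired pools of the same number, and the labels do not say whether these held the same steers. If they did, the 3 times are not separate evidence and the SE and p-values over pools may be too small.

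At the single times the PDK4 difference was -0.50 at T1 (adjusted p = 1), -0.34 at T2 (adjusted p = 0.274) and -0.56 at T3 (adjusted p = 0.718), with an SE of 0.22 each. The shares of features past the threshold were 0%, 24.1% and 0%, with 258 features at T1 and 1108 at T3 at an unadjusted p under 0.05. The PDK4 differences at the 3 times lay within their errors of one another. Over time PDK4 read lowest at T2, with T2 over T1 at -0.45 (SE 0.15, adjusted p = 0.162), T3 over T2 at 0.46 (SE 0.15, adjusted p = 0.197) and T3 over T1 at 0.01 (SE 0.15, adjusted p = 0.998), none of which passed. In these contrasts 0.804%, 0.526% and 0% of the features passed, and 983 had an unadjusted p under 0.05 for T3 over T1.

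**Figure D5:**
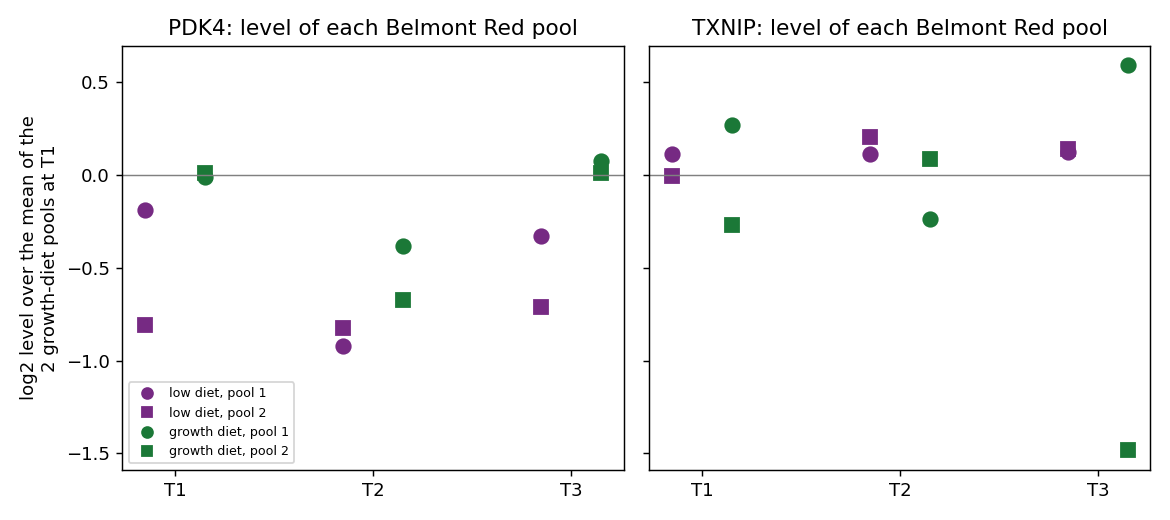
Fitted log2 level of PDK4 and TXNIP (y axis) in each of the 12 Belmont Red pools at T1, T2 and T3 (x axis), relative to the mean of the growth diet pools at T1, with colours for the low and the growth diet. The low diet pools of PDK4 lie below the growth diet pools at all 3 times, and 1 growth diet pool at T3 stands apart for TXNIP, at -1.48.

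TXNIP showed no diet difference that the pools could resolve. Relative to the mean of the growth diet pools at T1, the 6 low diet pools lay between -0.01 and 0.21, and the growth diet pools between -0.27 and 0.27 except at T3, where pool 1 was at 0.59 and pool 2 at -1.48. The mean difference was 0.29 (SE 0.30, limma adjusted p = 0.696). Without growth diet pool 2 at T3 it was -0.05 (adjusted p = 0.845), and without growth diet pool 1 at T3 it was 0.64 (adjusted p = 0.0246), so its sign turned without one of these pools and it gained a call without the other. T2 over T1 was 0.02, T3 over T2 -0.20 and T3 over T1 -0.18, with an SE of 0.37 each and adjusted p-values of 0.856 or higher. Over the 24 arrays PDK4 and TXNIP had r = -0.27.

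Of the list genes, 3 passed for the mean diet difference, in which 0.387% of all features did, all lower on the low diet: DLAT (-0.51, adjusted p = 0.0444), LDHA (-0.96, adjusted p = 0.0444) and the muscle actin ACTA1 (-0.76, adjusted p = 0.0366). All 3 calls were lost with arrays scaled to a common spread and when any 1 of 10 of the 12 pools was left out. FBXO40 read -0.56 (adjusted p = 0.0799) and PFKFB3 -0.55 (adjusted p = 0.285). PDK4 and DLAT, kinase and substrate complex, thus both read lower on the low diet, DLAT past the threshold and PDK4 not. No adipocyte gene passed, with values between -0.18 and 0.06.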

How the data were processed

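The members and gene lists were chosen with earlier results of these data known. The authors amplified RNA, hybridised 2 samples per array, scanned with GenePix and deposited log2 ratios. Their editing of the ratios is not given in the sources used here. Of 147 samples, 77 were not used here. Capped ratios (16.61) were left out, array medians were set to 0, and a gene's value is the mean of the elements that name it alone. In limma 3.58.1 (R 4.3.3, statmod 1.5.0), group terms coded +1 for Cy5 and -1 for Cy3 and a dye term were fitted to each feature measured on a share of arrays of 0.8 or more. For Belmont Red, pool levels were first fitted by least squares and the 12 pools tested. Tests were 2-sided, adjusted over all features (Benjamini-Hochberg), and called at 0.05. The number of arrays limits the precision. Fits were tested on simulated data in which some features were changed by a log2 value of 1. Of these, 88% were recovered for birth over d 195 and 65% for Piedmontese over Wagyu at birth. The share was 77% for crossbred T2 over T1 and 82% for Piedmontese over Wagyu at T2. It was 88% for the mean diet difference and 49% for the diet difference at T3. Simulated noise was independent between arrays, or between pools for Belmont Red, and few features were changed. The rates therefore do not cover arrays or pools that share animals or contrasts in which many features change. Named were, besides PDK4 and TXNIP, the 5 most and 3 least correlated genes of each over the fetal arrays. For birth over d 195, fuel and regulator lists with 8 or fewer measured genes were named in full. From longer lists the 3 genes with the smallest p were named. For cell markers, and for the crossbred and Belmont Red contrasts, mainly genes that passed the threshold were named. Alternatives covered centring, scaling, array weights, the upper limit, element summaries, filters, robust moderation, the dye term, blocks and leaving out arrays or pools. No sequences were used, and the planned search for promoter motifs was not run.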

Additional observations from a re-analysis of the deposited data

How the results depend on the processing

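The step at birth and the fall of PDK4 from T1 to T2 kept their direction under every alternative run, for PDK4 between 1.87 and 3.55 and between -1.91 and -1.46. Of 981 alternative values of 54 comparisons, 847 kept their direction and their side of the threshold or moved within the spread, 20 lost a call, 23 gained one, 20 moved further and 71 were counted as a change of sign. For the fetal steps a change of sign was counted only where the fit as run passed the threshold. Smaller steps that turned are thus not among the 71, such as d 195 over d 135 of PDK4, which reached 0.074. Nearly all sign changes were in contrasts smaller than their SE. Their causes were not tested, except that a fit on single elements holds TXNIP clone 2.

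Without centring, TXNIP for Piedmontese over Wagyu at d 135 read 0.19, the breed difference of the step at birth for PDK4 0.055 and PDK4 at T2 -0.99 (adjusted p = 0.0601). With arrays scaled to a common median absolute deviation, TXNIP for birth over d 195 was 1.77, and Piedmontese over Wagyu for TXNIP passed at d 60 (0.70, adjusted p = 0.0215) and at T2 (-0.84, adjusted p = 0.0476). Under that scaling Piedmontese over Wagyu read -0.15 at d 135 and -0.20 at d 195 for PDK4, and -0.074 at d 195 and -0.029 at T1 for TXNIP, the breed difference of the step at birth 0.43 for PDK4, Belmont Red T2 over T1 -0.077 for TXNIP and T3 over T1 -0.045 for PDK4. Array weights gave -0.10 at birth for PDK4, -0.76 at T2 for TXNIP (adjusted p = 0.0487), -0.030 for TXNIP in crossbred T3 over T1, -0.44 for the mean diet difference of PDK4 (adjusted p = 0.000159) and -0.045 for its Belmont Red T3 over T1. With the pool ignored the diet difference of PDK4 was -0.47 (adjusted p = 0.000531). TXNIP at d 195 read -0.022 with values at the upper limit kept and -0.0059 with the median of the elements. The median gave -0.0054 for TXNIP in crossbred T3 over T1 and -0.015 for PDK4 in Belmont Red T3 over T1, and leaving out TXNIP clone 2 gave -0.013 for the first of these. Without a dye term PDK4 at T2 was -1.07 (adjusted p = 0.0831), and with averaged couples -1.06 (adjusted p = 0.457). PDK4 for T3 over T1 in the crosses lost its call in 9 of 16 alternatives.

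Single elements of TXNIP ranged from 0.22 to 3.25 for birth over d 195 and down to -0.85 for birth over d 60. For Piedmontese over Wagyu, the extreme elements read 0.13 at d 60, -0.11 at d 135, -0.11 at d 195, -0.037 at birth and -0.75 at T2 (adjusted p = 0.0798) for PDK4. For TXNIP they read 0.26 at d 135, -1.27 at d 195, 0.20 at birth, -0.44 at T1, -0.97 at T2 (adjusted p = 0.00197) and 0.10 at T3. For the breed difference of the step at birth they read 0.19 for PDK4 and 0.55 for TXNIP. In the crosses over time they read -0.64 (adjusted p = 0.0141) and 0.23 for TXNIP in T2 over T1, -0.41 for it in Wagyu crosses, -0.081 in T3 over T2 and -0.16 in T3 over T1, and 0.0059 for PDK4 in T3 over T2. In Belmont Red they read -0.036 for the mean diet difference of TXNIP, -0.15, -0.41 and -0.14 for that at T1, T2 and T3, -0.17 for T2 over T1 and 0.025 for T3 over T1, and -0.027 for PDK4 in T3 over T1.

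With the array number as a replicate block, PDK4 at T2 was -0.75 (adjusted p = 0.425) and TXNIP at T1 -0.20. The labels do not say that a number marks shared animals. Between neighbouring fetal comparisons, 18 of 24 same-number correlations of deviations were below 0 (-0.66 to 0.52).

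With arrays or pools left out in turn, Piedmontese over Wagyu for PDK4 ranged from -0.17 to 0.033 at d 60, -0.25 to 0.42 at d 135, -0.47 to 0.55 at d 195, -0.069 to 0.17 at birth and -1.16 to -0.97 at T2. For TXNIP it ranged from -0.49 to 0.033 at d 135, -0.37 to 0.51 at d 195, -0.10 to 0.30 at T1 and -0.41 to 0.11 at T3. The breed difference of the step at birth ranged from -0.59 to 0.40 for PDK4. In the crosses PDK4 ranged from -1.75 to -1.64 for T2 over T1 and from -1.45 to 0.62 for T3 over T2, and TXNIP from -0.018 to 0.029 for T3 over T1. A lone array left for a time step is assumed to vary like the others. In Belmont Red, T3 over T1 of PDK4 ranged from -0.17 to 0.17. TXNIP ranged from -0.098 to 0.14 for T2 over T1, -0.72 to 0.33 for T3 over T2, -0.70 to 0.36 for T3 over T1, -0.23 to 0.32 for diet at T1, -0.45 to 1.62 at T3 and -0.048 to 0.64 for the mean.

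Counts of called features moved more than the genes did. Over all alternatives they ranged from 101 to 880 (566 as reported) for Piedmontese over Wagyu at T2, from 0 to 286 (130) at T1, from 0 to 366 (96) at T3, from 0 to 1371 (1183) for T2 over T1, from 0 to 2305 (1847) for T3 over T2, from 0 to 198 (131) for T3 over T1 and from 65 to 195 (195) for the breed difference between T1 and T2. In the fetal arrays they ranged from 5906 to 8845 (8751) for birth over d 195, from 0 to 883 (8) for sire breed at d 60, from 0 to 1359 (46) at birth and from 0 to 1257 (0) for the breed difference of the step at birth. In Belmont Red they ranged from 0 to 5549 (64) for the mean diet difference, from 691 to 11256 (3992) for diet at T2, from 0 to 1928 (0) at T1, from 0 to 2688 (0) at T3, from 0 to 4850 (133) for T2 over T1, from 0 to 2535 (87) for T3 over T2 and from 0 to 157 (0) for T3 over T1. The small number of arrays and pools limits what these contrasts can resolve.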
